A study of Mus musculus with 3 samples.

Results

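RNA from brain vessels of mice lacking connexin 43 in astroglia was set against RNA from brain vessels of wild-type mice. The series design gives both the same mixed background, and that match was not tested here. The first library came from mice with a Cx43fl/fl allele and an hGFAP-Cre transgene (genotype Cx43 -/- on C57BL6-BALB/c). Its partner came from WT C57BL6-BALB/c mice, and a further WT C57BL6 library is given beside them as a value. The design gives an age of 3 months. Each group had 1 library, so there were no replicates, no spread between animals and no test, and a difference below is a difference in size between 2 libraries. Genes were kept where the level reached 5 CPM (counts scaled to a common library size) in either compared library, which left 13551 of 29787 measured genes. The human GFAP promoter that drives Cre is active in astrocytes and in the radial glia from which neurons and astrocytes descend, so recombination is not restricted to perivascular astrocytes. The sources used here do not say how many animals went into a library or whether they were pooled.

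Connexin 43, the product of Gja1, forms the hexameric hemichannels that pair into gap junctions between astrocytes. In the brain it is concentrated in the astrocyte endfeet that sheathe the vessels, beside the water channel aquaporin 4 and the second astrocyte connexin, connexin 30 (Gjb6). The endfeet face the basement membrane of endothelial cells, pericytes and arterial smooth muscle, and connexin 43 is also made by cells of the vessel wall.

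The Cx43-deleted library was the deepest, with a total of 54975610 reads. Its partner WT C57BL6-BALB/c had 21170766 and WT C57BL6 had 24830975. A level of 5 CPM thus rested on 268, 106 and 127 counts summed over the transcripts of a gene. For a single transcript, the floor of 3 reads was a level of 0.0559, 0.141 and 0.118. Where 3 values follow a gene, they are CPM, first in the Cx43-deleted library, then in its partner WT C57BL6-BALB/c, then in WT C57BL6. Log2 ratios are of CPM + 0.5, Cx43-deleted over WT C57BL6-BALB/c unless another pair is named. Folds in the text are of the reads on the most abundant transcript with a 95% exact binomial interval, and these intervals and the floors cover counting error only. In bulk RNA fewer cells of a type and less RNA per cell cannot be told apart.

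Gja1 (ENSMUSG00000050953, GRCm38 chr10:56377330-56402513, plus strand) was the check of the genotype, and it lay 2.06 log2 units below WT C57BL6-BALB/c. It was at 48.0, 202 and 202 from 2574, 4276 and 5138 reads, so the wild types were alike. In the Cx43-deleted library the remaining reads covered its transcript with 6 of 3071 bases left bare. The other gap junction genes of astrocytes did not share its difference. Gjb6 was at 119, 106 and 114, a log2 ratio of 0.17, and Gjb2, connexin 26, was at 30.1, 38.9 and 49.6. Among the endothelial connexins, Gja5 (connexin 40) was at 16.7, 35.3 and 33.9, a log2 ratio of −1.05, and Gja4 (connexin 37) was at 59.3, 69.4 and 93.2. In the neighbourhood of Gja1, 39 other kept genes lay within 5 Mb, with a median of −0.09. Of these, Ddit4 was 2-fold or more higher and Fabp7 and Pln were 2-fold or more lower. Over all kept genes, 0.812% were higher and 0.834% lower by that rule, so the shares near Gja1 were larger, though over few genes. Exons of another gene overlap 65% of the exon bases of Pln, so its reads are uncertain.

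Of the kept genes, 110 were at least 2-fold higher in the Cx43-deleted library (0.812%) and 113 were at least 2-fold lower (0.834%). At 4-fold the counts were 27 and 23. The whole counting interval lay beyond 2-fold for 78 of the higher and 78 of the lower genes. Most genes differed little: 94.2% lay within 1.5-fold, the median log2 ratio was 0.0053 and the SD across genes was 0.36. Of all 13551 kept genes, 6921 were higher and 6630 lower, and the counts of list members below stand beside these. The share of genes past 2-fold depended on level, from 3.12% of 3621 genes with a mean level under 20 CPM to 0.725% of 4412 genes at 100 CPM or more. Of the genes past 2-fold, 43 of the higher and 42 of the lower reached 5 CPM in 1 of the libraries alone. Between the WT libraries, where no gene was deleted, 120 of 13694 genes were higher by that rule in WT C57BL6-BALB/c (0.876%) and 253 were lower (1.85%). The shares past 2-fold were thus no larger with the deletion than between the wild types, and both comparisons share the WT C57BL6-BALB/c library.

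**Figure D1:**
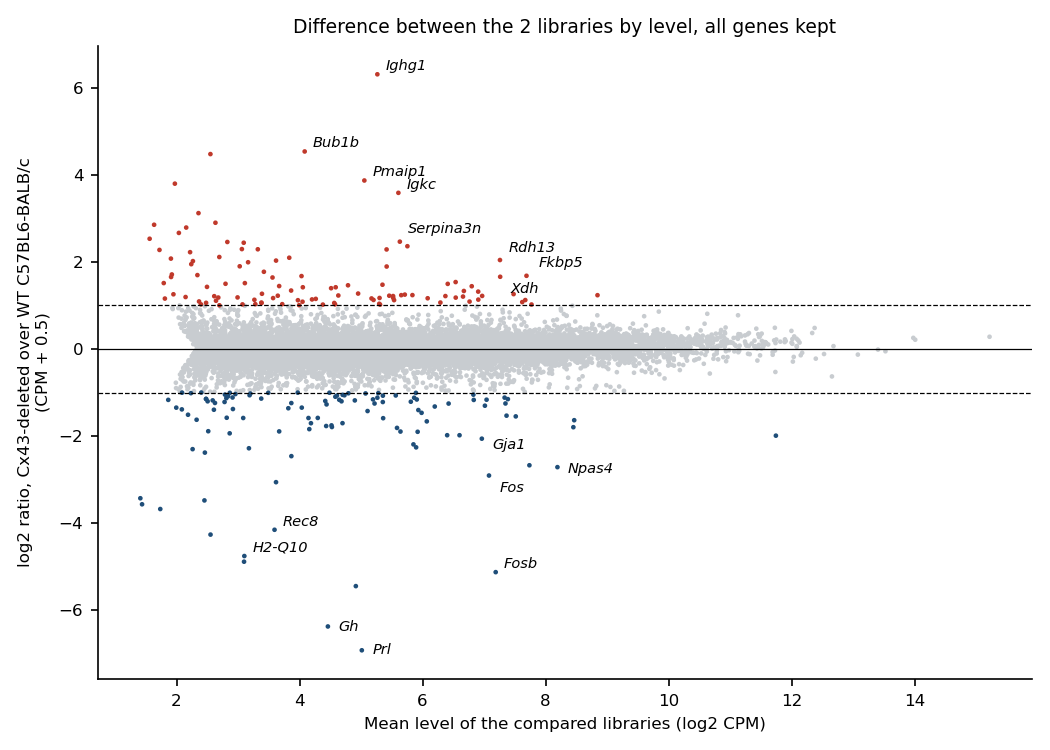
Log2 ratio (CPM + 0.5) of the Cx43-deleted over the WT C57BL6-BALB/c library against the mean level of both (log2 CPM), 1 point per kept gene. Dashed lines mark 2-fold, red points are the 110 genes higher and blue points the 113 genes lower. Fosb, Fos and Npas4 are low at high levels, while Ighg1 is the highest point and Prl the lowest.

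Immediate early genes need no new protein to be switched on and respond first when a cell is stimulated. Most were low in the Cx43-deleted library. The list has 35 genes, all kept, of which 29 were lower and 6 higher, 15 of them by 2-fold or more, all lower. The median was −0.70, against 0.0053 over all kept genes, of which 0.834% were 2-fold or more lower. Against WT C57BL6 the median was −1.12, and between the WT libraries it was −0.30 (WT C57BL6-BALB/c over WT C57BL6). The promoter windows of 4 of the lowest members are shown, and these 4 genes carry the largest differences of the group. Only members with a window holding the TGACG core described below could be shown, and the first such window is printed. A marked core in every sequence was therefore fixed in advance. The Egr2 window lies inside the gene, which begins at 67535475 in the annotation used here. Each window runs from 250 bases before to 50 bases after the start (RefSeq, GRCm38.p6), 5′ to 3′ on the gene's strand, for Fosb (chr7:19309996-19310295, minus), Fos (chr12:85473640-85473939, plus), Npas4 (chr19:4989922-4990221, minus) and Egr2 (chr10:67537619-67537918, plus). Capitals mark TGACG, the core of the cAMP response element bound by CREB-family factors, which reads CGTCA where it lies on the other strand.
Fosb: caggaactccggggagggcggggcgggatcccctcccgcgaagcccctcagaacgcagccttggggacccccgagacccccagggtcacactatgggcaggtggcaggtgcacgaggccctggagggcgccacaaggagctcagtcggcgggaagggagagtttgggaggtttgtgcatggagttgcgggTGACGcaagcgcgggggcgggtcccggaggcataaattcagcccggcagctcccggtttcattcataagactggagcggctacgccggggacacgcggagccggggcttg
Fos: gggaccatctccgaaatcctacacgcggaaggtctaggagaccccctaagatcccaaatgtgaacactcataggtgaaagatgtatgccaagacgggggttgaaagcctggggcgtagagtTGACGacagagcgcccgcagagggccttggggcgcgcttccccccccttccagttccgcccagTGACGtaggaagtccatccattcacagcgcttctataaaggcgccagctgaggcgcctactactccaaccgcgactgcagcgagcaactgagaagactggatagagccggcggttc
Npas4: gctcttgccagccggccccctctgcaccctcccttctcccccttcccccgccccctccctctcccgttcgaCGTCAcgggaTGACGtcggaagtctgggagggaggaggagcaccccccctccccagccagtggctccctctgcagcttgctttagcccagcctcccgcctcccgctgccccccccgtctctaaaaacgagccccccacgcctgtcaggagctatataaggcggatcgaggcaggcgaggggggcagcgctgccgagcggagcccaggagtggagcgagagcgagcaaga
Egr2: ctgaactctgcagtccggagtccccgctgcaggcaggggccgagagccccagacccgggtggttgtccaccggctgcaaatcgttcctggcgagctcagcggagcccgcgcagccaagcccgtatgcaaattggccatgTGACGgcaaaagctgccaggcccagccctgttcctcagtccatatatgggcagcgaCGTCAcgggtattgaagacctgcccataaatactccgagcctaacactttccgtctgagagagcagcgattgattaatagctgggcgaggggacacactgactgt
This TGACG core, searched on both strands, was present in 34.8% of the 10330 kept genes that have a RefSeq window. A gene counted if any of its windows held the motif, so genes with several windows had more chances. The numbers of windows per gene were not compared between the lists. It was found in 18 of 28 immediate early genes with a window (64.3%), and in all 12 of their 2-fold lower members with a window. Of all 2-fold lower genes with a window, 31 of 85 held it (36.5%). Among the 2-fold higher genes it was in 17 of 80 (21.3%). The full palindrome TGACGTCA, which holds the core on both strands, was in 3.47% of the 10330 genes. In the early list it was in Btg2, Dusp1 and Maff. The CArG box bound by serum response factor was in 1.58% of the 10330 genes, and in the early list it was in Egr2, Dusp5 and Zfp36. The motifs were chosen after the values had been seen, and a match in a window of this length is a description of its letters.

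Fosb, a partner of Jun proteins in the AP-1 transcription factor, had the largest difference of the list. Its level was 7.66, 284 and 37.9, which is a 37.1-fold difference (33.6 to 41.1). The WT C57BL6 library lay between the other two and nearer to the Cx43-deleted one. Fos, the founding AP-1 member, was at 31.5, 239 and 178, and here both WT libraries were high. Npas4, a factor induced by neuronal activity, was at 77.1, 508 and 103, and was 6.60-fold lower (6.36 to 6.84). For Npas4, WT C57BL6-BALB/c was the library that stood apart.

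The zinc-finger EGR factors were low together. Egr1 was at 84.5, 245 and 255, Egr2 at 20.2, 98.8 and 64.4, Egr3 at 20.4, 95.1 and 43.1, and Egr4 at 8.28, 28.1 and 19.8. In each of these 4 genes the Cx43-deleted library was the lowest of the 3. The orphan nuclear receptors of the NR4A group did not all follow. Nr4a1 was at 172, 535 and 458 and Nr4a2 at 102, 221 and 245, while Nr4a3 was at 53.9, 57.4 and 112 with a log2 ratio of −0.09. Among feedback regulators, Dusp5, a phosphatase of ERK, was at 10.05, 36.0 and 19.5, and Btg2, an antiproliferative factor, was at 50.5, 121 and 258. Ccn1, a matricellular protein of vessel wall cells, was at 25.3, 95.8 and 195. Junb, Atf3 and Ier2 completed the members past 2-fold, with log2 ratios of −1.25, −1.02 and −1.002.

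The rest of the list lay within 2-fold of the partner library. Jun was at 52.5, 59.0 and 166, a log2 ratio of −0.17, and Arc, a synaptic plasticity protein, at 285, 462 and 466, a ratio of −0.70. Klf2, a flow-responsive factor of endothelium, was on the other side at 148, 98.8 and 324, a ratio of 0.58, and Maff was at 19.4, 12.7 and 20.9. The 4 Egr members thus lay further from the partner library than Jun, Klf2 and Maff. Beside the list, neuron markers had a median of −0.14 with 6 of 22 higher, and 0 of 22 reached 2-fold. Ptgs2, the inducible prostaglandin synthase, is not a member but was of like size at 33.9, 135 and 53.1. Rgs2, an early-induced inhibitor of Gq signalling, was at 32.0, 102 and 41.6, and was chosen after its values were seen.

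**Figure D2:**
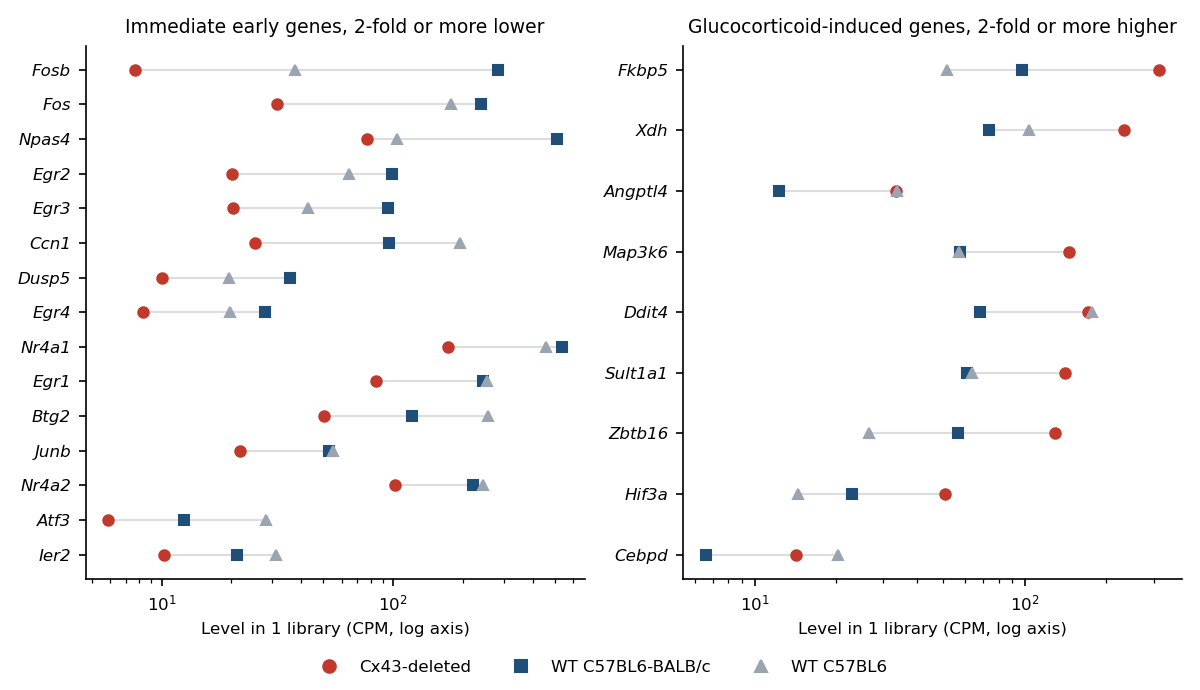
Level in each library (CPM, log axis) of the 15 immediate early genes that were 2-fold or more lower (left) and the 9 glucocorticoid-induced genes that were 2-fold or more higher (right). Each symbol is 1 library: red circle Cx43-deleted, blue square WT C57BL6-BALB/c, grey triangle WT C57BL6. On the left the red circle is the leftmost of the 3 in every row. On the right it lies to the right of the blue square in every row, and the triangle lies on either side of the red circle.

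Genes induced by glucocorticoids went the other way. The list gathers genes that the ligand-bound glucocorticoid receptor switches on in many tissues, 28 of which were kept. Of these, 21 were higher and 7 lower, with a median of 0.43. By 2-fold or more, 9 were higher and 0 lower, against 0.812% higher and 0.834% lower over all kept genes. Fkbp5, a co-chaperone that lowers the receptor's affinity for hormone, was the highest at 315, 97.9 and 51.4, 3.15-fold (2.94 to 3.38) above WT C57BL6-BALB/c. Xdh, xanthine dehydrogenase, was at 233, 73.6 and 104, and Map3k6, a stress kinase, at 146, 57.8 and 57.2. Zbtb16 (PLZF), a zinc-finger repressor, was at 129, 56.8 and 26.5, Sult1a1, a phenol sulfotransferase, at 141, 60.9 and 63.8, and Hif3a, a hypoxia-factor subunit, at 50.7, 23.0 and 14.5. In these 6 genes the Cx43-deleted library was the highest of the 3.

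The other 3 members past 2-fold were as high or higher in WT C57BL6. Ddit4, an inhibitor of mTORC1, was at 171, 68.4 and 177, Angptl4, a lipoprotein lipase inhibitor, at 33.3, 12.4 and 33.7, and Cebpd, a transcription factor, at 14.2, 6.60 and 20.3. For these WT C57BL6-BALB/c was the low library. The receptor genes themselves were slightly low: Nr3c1, the glucocorticoid receptor, was at 324, 383 and 468, and Nr3c2, the mineralocorticoid receptor, at 95.7, 121 and 127. The lowest member was Errfi1, an EGF receptor inhibitor, at 112, 196 and 170, and Dusp1, a MAP kinase phosphatase that is also in the early list, was at 202, 277 and 639. Against WT C57BL6 the median of the list was −0.15, and between the WT libraries −0.29. Circadian clock genes, which glucocorticoids also reach, had a median of −0.02 with 0 of 22 past 2-fold. Per1 was at 832, 735 and 669, Per2 at 219, 172 and 82.1, and Dbp at 102, 131 and 50.7.

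Of the vessel wall cell types, smooth muscle had the median furthest from 0. Each of its 20 markers was lower in the Cx43-deleted library, 4 of them by 2-fold or more, with a median of −0.83. Over all kept genes, 0.834% were 2-fold or more lower. Summed over the list the level was 7518, 11563 and 9639. The members lay between −1.43 and −0.27. Acta2, smooth muscle actin, was at 420, 818 and 573, Myh11, the smooth muscle myosin heavy chain, at 417, 757 and 467, and Tagln, an actin-binding protein, at 268, 485 and 356. Cnn1, calponin, was the furthest at 18.5, 50.4 and 28.1, 2.73-fold lower (2.50 to 2.98). Kcnmb1, the beta subunit of the large-conductance potassium channel, was at 15.4, 36.0 and 27.9. Pln, the inhibitor of the sarcoplasmic calcium pump, was at 36.5, 79.9 and 71.1, but 65% of its exon bases overlap another gene, so its reads are uncertain. Lmod1, leiomodin, was at 39.3, 79.5 and 53.5. Myocd, the coactivator that maintains this programme, was at 14.5, 22.6 and 13.1. Against WT C57BL6 the median was −0.44, and between the WT libraries it was 0.41, so WT C57BL6-BALB/c was the highest of the 3 for the list as a whole.

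Genes that set vessel tone were tallied in a separate list, which shares Kcnmb1 with the smooth muscle markers. Of these 41 vasomotor genes 30 were lower and 11 higher, with a median of −0.26, against 6630 lower of 13551 over all kept genes. In that list Pde3a, a cyclic nucleotide phosphodiesterase of smooth muscle, was at 20.6, 39.7 and 22.5, and Rgs4, a G protein regulator, was at 377, 735 and 523. P2ry2, a nucleotide receptor, was at 2.95, 6.46 and 12.4. The vasoconstrictor gene Edn1 was on the other side at 52.7, 39.6 and 110.

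Arterial endothelial markers were also low throughout, with 14 of 14 below WT C57BL6-BALB/c and a median of −0.29. Between the WT libraries the median of this list was −0.39. Past 2-fold were Gja5, given above, and Fbln5, an elastic fibre protein, at 73.8, 153 and 152. Sema3g, an arterial semaphorin, was at 159, 255 and 331, and Mgp, matrix Gla protein, was nearly level at 282, 290 and 385. Venous markers were mixed, with 6 of 11 higher and a median of 0.23. Among them Il1r1, the receptor of interleukin-1, was at 398, 210 and 320, whereas Slc38a5, a glutamine transporter, was at 99.8, 163 and 315. General endothelial markers had a median of −0.11, with 8 of 20 higher and 0 past 2-fold. Slc2a1, the barrier glucose transporter, was the furthest of these at a log2 ratio of 0.77. Pericyte markers had a median of −0.05, with 7 of 15 higher. Rgs5 was at 1122, 955 and 1570.0 and Pdgfrb at 359, 380 and 637, while Cspg4 (NG2), which smooth muscle also makes, was at 56.2, 109 and 100. Against WT C57BL6 the endothelial and pericyte medians were both −0.82, and between the WT libraries they were −0.73 and −0.72.

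**Figure D3:**
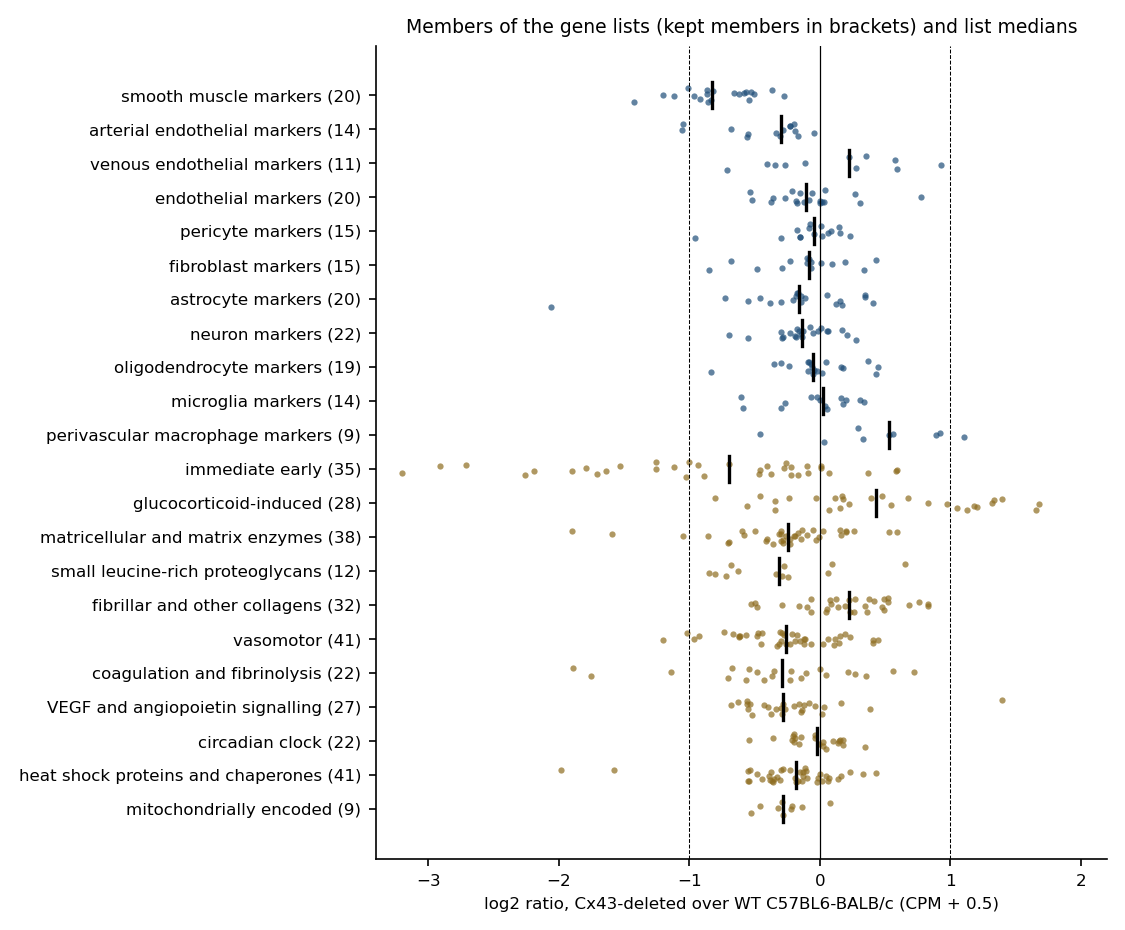
Log2 ratio (CPM + 0.5, Cx43-deleted over WT C57BL6-BALB/c) of each kept member of 22 gene lists, with the list median as a black bar and dashed lines at 2-fold. Blue points are cell type markers and brown points process lists. Fosb, at −5.12, is drawn at the left edge of the points. All smooth muscle and arterial points lie left of 0, the early list reaches furthest left, and most glucocorticoid-induced points lie right of 0.

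Markers of astrocytes, to which the deletion was directed, were otherwise near level. Gja1 was the single member of 20 past 2-fold, and the median was −0.16 with 7 higher. Aqp4, the endfoot water channel, was at 11.8, 19.8 and 14.2, a log2 ratio of −0.73, and Mlc1, a membrane protein of endfeet, was at 166, 243 and 304. Gfap was at 265, 300 and 309, Slc1a3, a glutamate transporter, at 400, 432 and 476, and Aldh1l1 at 56.7, 50.8 and 74.4. The other glial lists were centred near 0, with medians of 0.02 for microglia and −0.05 for oligodendrocytes. Perivascular macrophage markers were higher in 8 of 9 kept members, of 12 listed, with 3 kept through 1 library alone. Of the compared libraries, Lyve1 reached 5 CPM in the Cx43-deleted one alone, where it is high. The median was 0.53 over kept members and 0.36 over all 12 measured. Against WT C57BL6 the median of kept members was −0.03, and between the WT libraries it was −0.40. Lyve1, a hyaluronan receptor, was at 8.71, 3.77 and 7.64, Cd163, which takes up haemoglobin bound to haptoglobin, was at 32.4, 16.9 and 16.6, and Mrc1, the mannose receptor, was at 28.1, 22.2 and 38.3. Choroid plexus and ependymal markers split within the list: the plexus genes Ttr (3194, 2311 and 6204) and Folr1 (226, 140 and 380) were higher than in the partner library, and the ciliary genes Foxj1 (64.7, 103 and 95.02) and Tmem212 (19.1, 33.1 and 44.4) were lower.

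Matrix genes divided by class. Of the 32 listed collagen genes kept, 24 were higher, with a median of 0.23 and 0 past 2-fold. Col6a4, which is not in the list and was chosen after its values were seen, passed 2-fold at 8.82, 4.15 and 20.5. The beaded-filament collagens Col6a1 (443, 315 and 225) and Col6a3 (79.6, 55.4 and 43.8) were higher, and so was Col16a1 (408, 240 and 211). The fibrillar Col3a1 was at 37.7, 52.7 and 58.6 and Col1a1 was nearly level at 67.8, 71.0 and 90.3. Small leucine-rich proteoglycans, which bind fibrillar collagen, were lower in 9 of 12, with a median of −0.31. Among them Dcn, decorin, was at 57.8, 92.8 and 103, Bgn, biglycan, at 305, 472 and 544, and Lum, lumican, at 8.85, 16.3 and 21.1. Of 38 matricellular proteins and matrix enzymes 30 were lower, and Thbs1, thrombospondin 1, was at 20.2, 61.9 and 55.4. Ltbp1, which tethers latent TGF-beta, was at 102, 186 and 179.

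Fibrinolysis genes were among the lower genes at modest levels. Plau, urokinase, was at 5.11, 20.3 and 9.96, lowest in the Cx43-deleted library. F2rl1, a protease-activated receptor, was at 6.30, 14.5 and 12.7. The endothelial tissue-type activator Plat was on the other side, at 213, 129 and 308. Over the 22 coagulation and fibrinolysis genes kept, 15 were lower and the median was −0.29, and between the WT libraries it was −0.45. In VEGF and angiopoietin signalling 22 of 27 genes were lower, with a median of −0.28, and between the WT libraries it was −0.34. Over all kept genes, 6630 of 13551 were lower. The ligand Vegfa was at 781, 598 and 546, whereas the receptors Kdr and Tek were at 129, 185 and 309 and at 467, 676 and 1054. Angptl4 was the member past 2-fold. Of 41 chaperones, 31 were lower, with a median of −0.18, and Hspa5, the chaperone of the endoplasmic reticulum, was at 969, 1356 and 1364. Hspa8 was at 38.9, 155 and 219, yet its most abundant transcript was 2.52-fold lower (2.31 to 2.75), and processed pseudogenes make its reads uncertain.

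Several of the largest differences came from genes read in almost 1 library alone. Antibody genes were high in the Cx43-deleted library. The constant genes of IgG lie with Ighm at chr12:113285325-113422730, where 5 of 5 kept genes passed 2-fold. This window was drawn from the first to the last gene past 2-fold in a run of such genes, so the count was largely fixed in advance. Ighg1, Ighg2b and Ighg3 reached 5 CPM in the Cx43-deleted library alone. Ighg1 was at 76.4, 0.472 and 0.0394, Igkc, the kappa light chain, at 90.4, 7.07 and 1.81, and Jchain at 16.9, 3.07 and 1.85. Ighm, the IgM constant gene, was the exception at 7.51, 28.2 and 21.8. The heavy chain genes resemble each other and vary between strains, so the division of reads among Ighg1, Ighg2b, Ighg2c and Ighg3 is uncertain. Of the cell markers beside them, Cd79a, of the B cell receptor complex, was at 0.746, 0.566 and 0.787, under 5 CPM in all libraries. Xbp1 was at 242, 272 and 332 and Prdm1, a plasma cell factor, at 10.1, 9.71 and 16.4. The part of plasma cells in the antibody values was not tested.

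Pituitary hormone genes were the mirror case, high in WT C57BL6-BALB/c. Prl, prolactin, was at 0.0373, 64.5 and 0, Gh, growth hormone, at 0.0373, 44.0 and 0.276, and Fshb, the beta subunit of follicle-stimulating hormone, at 0.0559, 6.60 and 0. The Prl difference rested on 1 read against 684 on its most abundant transcript. Cga, the shared alpha subunit, was at 0.876, 59.5 and 0.197, with 32% of its exon bases overlapping another gene. Pomc was at 2.14, 9.29 and 5.16. Of 18 listed genes 8 were kept, 7 of them through 1 library alone, and the pituitary factor Pou1f1 was at 0.242, 0.189 and 0.157. The summed level of the list was 31.5, 218 and 36.6. Prl, Gh, Cga and Fshb thus passed 5 CPM in WT C57BL6-BALB/c alone, and the part of pituitary RNA in other differences was not tested.

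Some further genes with large differences belong to the MHC or to multicopy families. H2-Ea-ps, named H2-Ea in strains that express it, encodes the E-alpha chain of MHC class II and is silent in the b haplotype of C57BL6. It had 0, 115 and 0 reads, and all 686 bases of its transcript were bare in the Cx43-deleted library. With the floor of 3 reads in place of 0 it was 97.0-fold lower there, and the counting interval began at 77.6-fold. It was chosen after its values were seen. H2-Q10, a class I gene, was at 0.149, 17.02 and 0.236, but its 361 reads in WT C57BL6-BALB/c left 1160 of 1473 bases bare. 2410017I17Rik, another gene of chromosome 17, had the same count of 361 there, so both values are uncertain. Whether these are the same reads was not tested. Over the 17 kept H2 genes the median was 0.10, with 10 higher and 7 lower, and H2-K1 was at 629, 532 and 1001. In the multicopy genes Sfi1 (1379.8, 5485 and 957) and Cwc22 (57.6, 369 and 47.4) the Cx43-deleted library also lay near WT C57BL6, and their reads are uncertain. At chr13:67405709-67687071, a cluster of zinc-finger repressors, 4 of 7 kept genes passed 2-fold in both directions. This window, too, ran from the first to the last gene past 2-fold, so both of its ends were called genes by construction. Zfp459 was at 3.13, 9.05 and 3.39 and Zfp729a at 9.53, 33.7 and 8.11, while Zfp738 was at 16.6, 7.12 and 13.5 and Zfp874a at 13.4, 5.85 and 16.8. In these 4 genes, too, the library labelled Cx43-deleted lay nearer to WT C57BL6 than to its partner WT C57BL6-BALB/c. Strain alleles and the deletion cannot be told apart with 1 library a side.

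**Figure D4:**
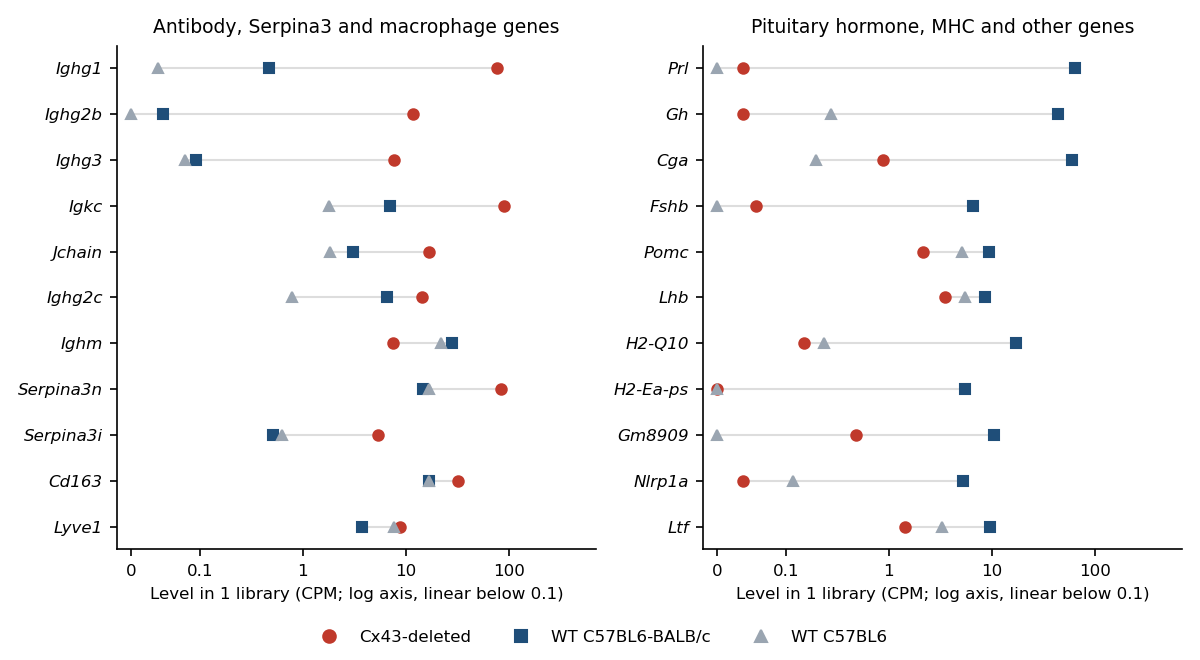
Level in each library (CPM, log axis that is linear below 0.1) of antibody, Serpina3 and macrophage genes (left) and of pituitary hormone, MHC and other genes (right), 1 symbol per library (red circle Cx43-deleted, blue square WT C57BL6-BALB/c, grey triangle WT C57BL6). Red circles stand alone at the right for Ighg1, Igkc and Serpina3n, and blue squares stand alone at the right for Prl, Gh and H2-Q10.

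Among higher genes outside the lists, the serpin cluster at chr12:104247905-104414329 had 3 of 3 kept genes past 2-fold. This window, too, ran from the first to the last gene past 2-fold, so the count was largely fixed in advance. Serpina3i and Serpina3h reached 5 CPM in the Cx43-deleted library alone. Serpina3n, a secreted protease inhibitor of reactive astrocytes, was at 84.2, 14.9 and 16.8, with Serpina3i at 5.39, 0.519 and 0.630 and Serpina3h at 8.16, 0.755 and 0.669. These copies share sequence, so the division of reads among them is uncertain. Pmaip1 (NOXA), which promotes apoptosis by binding MCL1, was at 62.6, 3.82 and 7.83, 16.4-fold higher (13.1 to 20.7). Of the 25 kept genes of the BCL2 family, Pmaip1 included, 13 were higher, and Pmaip1 was the single member past 2-fold. Bub1b, a kinase of the spindle checkpoint, was at 33.0, 0.943 and 16.1, so the partner library was the low one. Zfp933, a zinc-finger gene, was likewise at 71.1, 14.2 and 56.2. Rdh13, a mitochondrial retinol dehydrogenase, was at 247, 59.5 and 76.9, with both WT libraries low. Other retinoid genes past 2-fold were Cyp26b1, which degrades retinoic acid (35.2, 12.9 and 29.5), and Stra6, a receptor for retinol-binding protein (165, 74.9 and 178). Both were chosen after their values were seen, and in both WT C57BL6 was near the Cx43-deleted library.

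Among the remaining lower genes, Rec8, a meiotic cohesin subunit, was at 0.839, 23.3 and 20.9, 29.8-fold lower (19.9 to 46.3), and both WT libraries were high. Nlrp1a, an inflammasome sensor, was at 0.0373, 5.28 and 0.118, and Ltf, lactoferrin, at 1.44, 9.57 and 3.27. Dsp, desmoplakin, a desmosome protein also found in dentate granule neurons, was at 20.8, 78.9 and 35.2. Slc22a3, an organic cation transporter, was at 2.76, 15.3 and 2.64, and Capn11, a calpain of testis, at 2.24, 22.3 and 7.83. In Nlrp1a, Ltf, Dsp, Slc22a3 and Capn11 the WT C57BL6-BALB/c library was the high one, whereas for Rec8 and Gja1 the Cx43-deleted library was the one that stood apart.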

How the data were processed

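Groups came from the labels, 1 library each. Each deposited table lists 82813 Ensembl transcripts with a raw read count by the authors, the same count as a fraction of a library total, and other columns, per the file headers, of which transcript length and bases without a read were used. Dividing count by fraction gave the library totals. The submitters' processing notes name CASAVA 1.8.2, Bowtie and mm10. The counting program and the handling of multiply mapped reads were not given in the sources used here. Counts sum to 2.55, 2.53 and 2.45 times the totals, so reads were counted more than once, on several transcripts, at several loci or both, which the sums do not separate. The TruSeq RNA v2 kit named in the labels' protocols keeps no strand, so overlapping and antisense genes share reads.

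Coordinates in the tables reach 197054592 on chromosome 1, past the last gene of that chromosome in GRCm38 at 195176716, so they were not used. Identifiers were matched to GENCODE M21 (GRCm38), and 69375 matched (83.8%), of which 213 on another chromosome were left out. Matched transcripts held 83.4%, 83.4% and 84.0% of counts. Counts were summed per gene and scaled by the total and by TMM (edgeR 4.0.16, R 4.3.3), whose factors were 0.976, 1.00 and 1.02, to give CPM. The pseudocount of 0.5 shrinks log2 ratios of genes at low levels. Intervals were computed in Python 3.11.15 (pandas 2.3.3, numpy 2.4.6, scipy 1.17.1) and figures drawn with matplotlib 3.10.9.

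With 1 library per group no test was run and no p-value is given. Genes named were Gja1, the 25 highest and 25 lowest protein-coding or immunoglobulin constant genes with under 20% exon overlap and no predicted, ribosomal, histone or pseudogene symbol, every list member past 2-fold, and up to 4 list members furthest each way or defining a cell type. Some genes that the rule names are not reported here. Members of a list described beyond this rule, and other exceptions, were chosen after values were seen. The comparison, the 54 gene lists (34 of processes, 20 of cell markers) and the rules were chosen with earlier results of these data known. Counts were simulated for 13334 genes whose pooled level in the compared libraries was 5 CPM or more, with counting error only. Of genes set 4-fold higher or lower, 50 of 50 were called each way. Of genes set 1.5-fold higher or lower, 0 of 50 were called each way, and 0 of 13134 unchanged genes were. The simulation held no variation between libraries beyond counting and no reads counted more than once. It does not show how many of the observed calls would recur. Alternatives were other scalings (DESeq2 1.42.0 size factors among them), pseudocounts, minimum levels, the most abundant transcript alone, and protein-coding genes with little overlap.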

Additional observations from a re-analysis of the deposited data

How the results depend on the processing

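The counts of genes past 2-fold (110 higher and 113 lower) stayed within 1.5 times under the other scalings, pseudocounts of 0.1 and 2, the most abundant transcript and protein-coding genes with little overlap. They moved with the minimum level by construction, since other genes enter. At a minimum of 1 CPM there were 174 higher genes (166 lower), with no minimum 193 higher and 177 lower, and at 20 CPM 60 higher and 73 lower. The fewest shared calls were at a minimum of 20 CPM, with 133 of 223. Scaling by the library total alone gave 99 higher and 122 lower genes, with 212 of 223 shared. Of the log2 ratios of named genes under the alternatives, 53 moved, under the other pseudocounts or the most abundant transcript, and 1303 did not. The medians of the BCL2 family, p53 target, complex I, glycolysis, caveolae, mitosis, microglia and pineal lists lie near 0 and change sign with the scaling, the mitosis list from 0.05 to −0.04 with the library total alone. With other minimum levels or the most abundant transcript, the medians of the meiotic, neutrophil, proteasome and muscle (skeletal and cardiac) lists also changed sign, the last from 0.83 to −0.10 over few genes. No paired analysis was possible because each group has 1 library. The lower depth of WT C57BL6-BALB/c limits genes near 5 CPM, where 106 counts stand behind a level.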

Other observations

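Transcripts that did not match the annotation were analysed one by one. Of 6213 with 5 CPM or more in either library, 44 were 2-fold or more above the partner WT library (0.708%) and 29 were 2-fold or more below it (0.467%), with a median log2 ratio of 0.02. The furthest higher were ENSMUST00000103419 on chromosome 12 at 76.3, 0.472 and 0.0394 CPM and ENSMUST00000103421 on chromosome 12 at 17.5, 0 and 0.0394. The furthest lower were ENSMUST00000040279 on chromosome 17 at 0.0746, 17.02 and 0.0787 and ENSMUST00000040306 on chromosome 17 at 0, 7.40 and 0. These are not counted as separate evidence: the first higher one has 4095, 10 and 1 reads where Ighg1 has 4100, 10 and 1, and the first lower one has 361 reads in WT C57BL6-BALB/c, as H2-Q10 does. Whether the same reads were counted again was not tested.

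By chromosome, the share of kept genes past 2-fold either way was 4.19% on chromosome 12 and 2.89% on chromosome 17. Over all kept genes, 0.812% were higher and 0.834% lower. Chromosome 12 had 11 higher and 8 lower genes, of which the immunoglobulin heavy chain and Serpina3 clusters held 5 and 3. Chromosome 17, which holds the MHC, had 11 higher and 7 lower genes. Of its H2 genes 0 were higher and 2 lower by that rule. On chromosome X it was 0.833%, and on chromosome 16 it was 0.699%.

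Coverage along transcripts was alike in the libraries. For transcripts of 1500 to 2500 bases with 200 to 400 reads, the median share of bases without a read was 9.01% with the deletion, 8.52% in its WT C57BL6-BALB/c partner and 9.52% in the WT C57BL6 library.

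Mitochondrially encoded genes were slightly low in the Cx43-deleted library, with 8 of 9 kept genes lower and a median of −0.28. Between the WT libraries their median was −0.41. The ribosomal RNA mt-Rnr2 was at 645, 931 and 1062 CPM and mt-Nd1, a complex I subunit, at 2541, 2411 and 4279. Nuclear complex I genes had a median of 0.02, whose sign changes with the scaling, with 18 of 34 higher.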
